A study of Mus musculus with 2 samples.

Results

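The 10 genes Hlf, Mecom, Hoxa9, Hoxb4, Hoxb5, Prdm16, Mycn, Mllt3, Nkx2-3 and Tcf15 were followed as transcription regulators of blood stem cells. They were taken by gene symbol from the 32285 genes of the count matrices, and each symbol matched 1 gene. Their levels were read in hematopoietic stem cells of the mouse, for which the labels name blood as the tissue; the cells had spent 48 h in suspension culture with the compound RO-3066 or with dimethyl sulfoxide (DMSO), its vehicle. Single-cell libraries of transcript 3' ends were made by the 10x Genomics workflow, 1 library per treatment. Strain, age, number of mice, sorting gate and dose were not stated in the sources used, and the labels state no target of RO-3066. With 1 library per treatment there was no replicate and no test between treatments. Intervals given below are exact 95% intervals of counting error alone.

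Hematopoietic stem cells renew themselves and give rise to all blood lineages, and a small set of transcription regulators maintains that ability. These regulators are mostly switched down as cells commit to a lineage, of which the megakaryocyte, the platelet-forming cell, branches off close to the stem cell in the mouse. Hlf is a PAR bZIP factor that marks stem cells. Mecom (Evi1) and Prdm16 are zinc-finger proteins of the PRDM family needed to keep stem cells in number. Hoxa9, Hoxb4 and Hoxb5 are homeobox factors of the HoxA and HoxB clusters, Hoxb5 being used as a marker of long-term stem cells, and Nkx2-3 is a homeobox factor of the NK class. Mycn belongs to the MYC family of growth regulators, Tcf15 is a bHLH factor linked to stem cell quiescence, and Mllt3 (AF9) is a reader of acylated histones that recruits the DOT1L and super elongation complexes.

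The matrices held 6160 DMSO and 3882 RO-3066 barcodes, of which 5832 and 3680 were kept as single cells, with 175032973 and 165184619 unique molecular identifiers (UMIs, counted transcripts). RO-3066 cells were deeper, with a median of 34997.5 UMIs against 24057, so detection was compared on cells thinned to 10000 UMIs each (5748 and 3556 cells; 84 and 124 shallower cells were left out). The libraries shared 6 barcode sequences among kept cells. Stem and progenitor markers were present in both libraries: Kit stood at 68.8 and 101 counts per 1000000 UMIs (CPM) in DMSO and RO-3066, Cd34 at 68.4 and 54.4, and Procr at 4.57 and 4.23. The lymphoid list summed to 0.349 and 0.424 CPM, with Cd3e and Il7r at 0. The megakaryocyte list summed to 5482 and 4822 CPM, nearly all of it Pf4 (5136 and 4260 CPM), a platelet chemokine. The sum of the other 8 megakaryocyte markers ran the other way, at 346 and 562 CPM. Of them 4 were at least 1.5-fold higher in RO-3066 and 0 were lower by as much, though Clec1b was at 9.71 and 7.49 CPM. Erythroid markers summed to 213 and 468 CPM, mostly the globin Hbb-bt (198 and 448 CPM), and neutrophil and monocyte markers to 156 and 157 CPM. Both libraries thus held RNA of the megakaryocyte, erythroid and myeloid lineages beside that of stem cell markers.

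The promoters of 3 members are shown because these genes are the ends of the range described below: Hlf and Nkx2-3 had the steepest decline with Pf4 in DMSO cells and Mycn had none. The sequences are the 250 bases before the RefSeq start site (GRCm38.p6), 5′ to 3′ on the gene's strand, and capitals mark motif letters. The Hlf window is chr11:90390918-90391167 (minus strand), the Nkx2-3 window chr19:43612075-43612324 (plus strand) and the Mycn window chr12:12941837-12942086 (minus strand).
Hlf: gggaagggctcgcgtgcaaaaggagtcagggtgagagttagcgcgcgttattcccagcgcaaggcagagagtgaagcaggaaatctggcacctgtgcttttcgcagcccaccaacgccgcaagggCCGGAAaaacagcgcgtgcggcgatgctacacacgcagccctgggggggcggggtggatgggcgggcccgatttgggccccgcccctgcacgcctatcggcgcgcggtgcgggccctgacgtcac
Nkx2-3: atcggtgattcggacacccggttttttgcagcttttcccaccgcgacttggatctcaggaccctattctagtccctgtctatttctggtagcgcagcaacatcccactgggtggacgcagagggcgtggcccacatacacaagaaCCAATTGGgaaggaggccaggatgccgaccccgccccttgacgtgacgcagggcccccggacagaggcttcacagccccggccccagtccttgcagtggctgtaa
Mycn: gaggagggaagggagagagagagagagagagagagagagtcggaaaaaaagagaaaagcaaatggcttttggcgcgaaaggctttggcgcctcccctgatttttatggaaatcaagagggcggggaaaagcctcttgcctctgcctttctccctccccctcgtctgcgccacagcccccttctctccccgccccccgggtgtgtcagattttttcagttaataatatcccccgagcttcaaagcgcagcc
Motif letters were searched on both strands from 250 bases before to 50 bases after the start: AGATAA for GATA factors, CCGGAA for ETS factors, CACGTG for the E-box, TGTGGT for RUNX factors, TATAAA for the TATA box and CCAAT for the box of that name. Hlf held the ETS letters once, 125 bases before the start, and 14.9% of the 32851 RefSeq windows of this length hold them. Nkx2-3 held CCAAT at 105 bases before the start and, overlapping it on the other strand, at 102 bases before, and again 25 bases after the start, where 37.4% of all windows hold it. The Mycn window held none of these letters. Of the 10 members, 8 had RefSeq entries (10 windows); the letters for GATA factors, the E-box, RUNX factors and the TATA box, held by 11.2%, 7.15%, 16.8% and 13.6% of all windows, were in none of the 10. A match of letters is a description and no site.

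All 10 members were detected in both libraries, at levels from 2.26 to 93.3 CPM in DMSO and from 3.57 to 75.4 CPM in RO-3066. Because 3' libraries count 1 end per transcript, levels were not divided by gene length. In DMSO the order from the highest level was Mycn, Mecom, Hlf, Tcf15, Hoxa9, Mllt3, Nkx2-3, Hoxb4, Prdm16 and Hoxb5, and no neighbouring counting intervals overlapped. In RO-3066 Hlf passed Mecom, Mllt3 passed Hoxa9 and Hoxb4 passed Nkx2-3. There the intervals of Hoxb4 (12.7 CPM, 12.1 to 13.2) and Nkx2-3 (12.2 CPM, 11.7 to 12.8) overlapped, so these neighbours were not separated by counting error.

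Summed over all cells of a library, no member at 5 CPM or more differed by 1.5-fold between treatments. In RO-3066 or DMSO, 9 members reached 5 CPM, and of these 0 were higher and 0 were lower in RO-3066 by 1.5-fold or more; over all 9338 genes at that level, 6.61% were higher and 2.46% lower. The median log2 ratio of the 9 members (RO-3066 over DMSO, 1 added to each CPM) was 0.22, against -0.00 over all genes, and 6 of the 9 were above a ratio of 1. Hoxb5 was below 5 CPM in both libraries and was left out of that count.

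The PAR bZIP factor Hlf stood at 60.7 CPM in DMSO and 71.5 CPM in RO-3066, a ratio of 1.18 (1.15 to 1.21). It was 1.46 with equal weight per cell and 1.44 on thinned cells, and it moved most, to 2.05, in cells of 15000 to 40000 UMIs, a window picked once the data were known that took in 80.2% and 48.4% of cells in DMSO and RO-3066. Within quartiles of Pf4, described below, the Hlf ratio ran from 0.866 to 1.26. Within quartiles of the cycling genes Mki67 plus Top2a, also described below, it was 1.77, 1.06, 1.44 and 1.65, past 1.5-fold in 2 of the 4. Mecom was at 65.0 and 66.8 CPM, a ratio of 1.03 (1.0 to 1.05) that was 1.43 in cells of 15000 to 40000 UMIs. The Mecom ratio ran from 0.789 to 1.13 within Pf4 quartiles. Within Mki67 plus Top2a quartiles it ran from 0.956 to 1.501, reaching 1.5-fold in the highest. Prdm16, the second PRDM member, was at 5.08 and 6.96 CPM, a ratio of 1.37 (1.25 to 1.5) that was above 1 in all 4 Pf4 quartiles and all 4 Mki67 plus Top2a quartiles. It passed 1.5 in cells of 15000 to 40000 UMIs, at 1.56, and in 1 Pf4 quartile (1.53) and 2 Mki67 plus Top2a quartiles (1.71 and 1.51).

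Among homeobox members Hoxa9 was lower and Hoxb4 and Hoxb5 were higher in RO-3066. Hoxa9 was at 35.0 CPM in DMSO and 26.9 CPM in RO-3066, a ratio of 0.767 (0.738 to 0.798), and it was below 1 in each Pf4 quartile (0.604 to 0.847). Within Mki67 plus Top2a quartiles, however, it was 1.06, 0.714, 0.794 and 1.16, and in cells of 15000 to 40000 UMIs it was 1.03, so the direction of Hoxa9 depended on the cells compared. Hoxb4 was at 10.1 and 12.7 CPM, a ratio of 1.25 (1.18 to 1.34), and its quartile ratios of 1.13 to 1.38 were all above 1. Hoxb5, the lowest member, was at 2.26 and 3.57 CPM, a ratio of 1.58 (1.39 to 1.80). The antisense gene Hoxb5os overlaps it and was at 2.16 and 5.01 CPM, so that reads of the pair cannot be told apart unless strand was used in counting, which was not stated. Nkx2-3 was at 13.2 and 12.2 CPM, a ratio of 0.930 (0.876 to 0.988), which turned to 1.11 on thinned cells, 1.08 with equal weight per cell and 1.29 in cells of 15000 to 40000 UMIs; no direction is read from it.

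Mycn, the highest member, was at 93.3 CPM in DMSO and 75.4 CPM in RO-3066, a ratio of 0.808 (0.789 to 0.827), and was below 1 in each Pf4 quartile (0.715 to 0.916) and from 0.772 to 1.0 within Mki67 plus Top2a quartiles. Tcf15 was at 40.9 and 54.5 CPM, a ratio of 1.33 (1.29 to 1.38), and above 1 in each Pf4 quartile (1.14 to 1.66). The histone reader Mllt3 was at 29.5 and 34.6 CPM, a ratio of 1.17 (1.13 to 1.22). Mycn was thus the more abundant bHLH member in both libraries, and the Mycn and Tcf15 levels lay closer together in RO-3066.

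**Figure D1:**
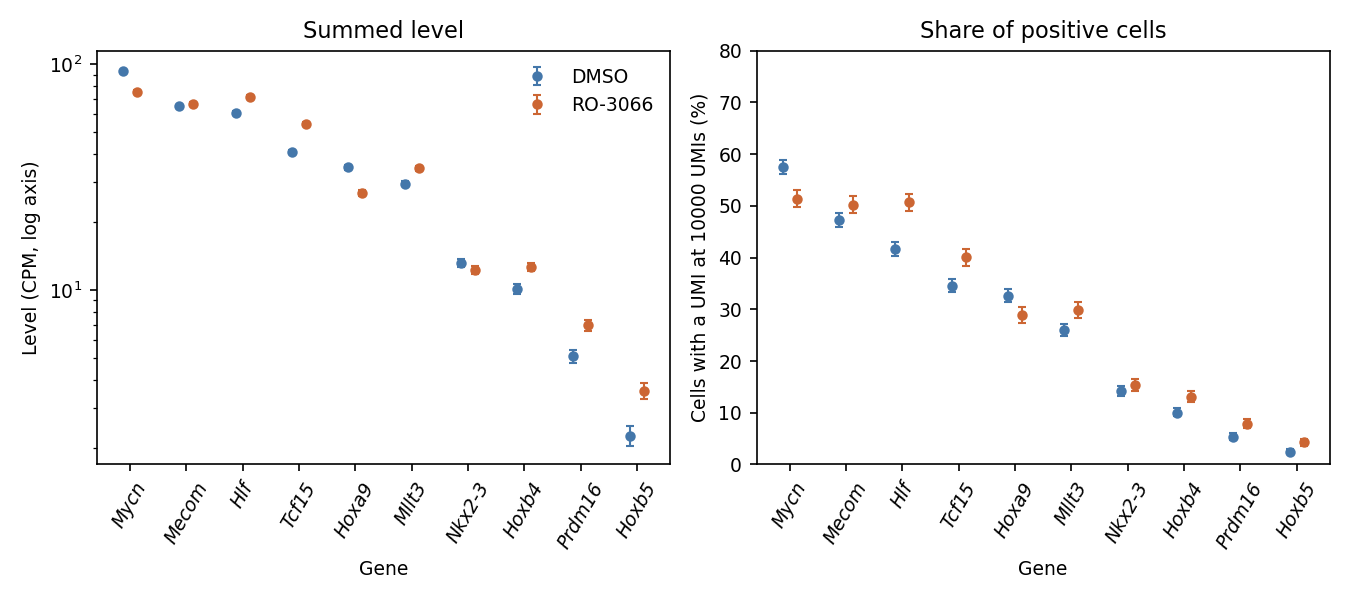
Level of each member in CPM (log axis) and share of cells with a UMI at 10000 UMIs per cell, in the DMSO and RO-3066 libraries; bars are exact 95% counting intervals. Mycn, Mecom and Hlf lie at the top in both libraries and Hoxb5 and Prdm16 at the bottom, and no member at 5 CPM or more differs by 1.5-fold.

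Detection followed level. At 10000 UMIs per cell, where 1 UMI equals 100 CPM, Mycn had a UMI in 57.5% of cells with DMSO and 51.3% with RO-3066, Mecom in 47.3% and 50.2%, and Hlf in 41.6% and 50.7%. The middle members were Tcf15 (34.6% and 40.0%), Hoxa9 (32.6% and 28.9%) and Mllt3 (26.0% and 29.9%). Without thinning the Hlf shares were 63.9% and 79.2%, which also carries the gap in depth.

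The low members were Nkx2-3 (14.2% and 15.4%), Hoxb4 (10.0% and 13.1%), Prdm16 (5.38% and 7.85%) and Hoxb5 (2.45% and 4.25%). The share of Nkx2-3 ran against its CPM, and no order is read from it. None of the 10 was near the floor by the rule used, a UMI in under 1% of cells of both libraries. As a measure of background, 15 genes of other organs were read in the same cells: 10 were at 0 and the highest share was 0.765% (Hnf4a), so Hoxb5 stood above that background by the least. Of the Prdm16 cells with a UMI, 95.1% in DMSO and 93.5% in RO-3066 had exactly 1, and of the Hoxb5 cells 96.5% and 95.4%, so single cells without a UMI of these genes cannot be called negative. In Hlf cells, by contrast, 52.8% and 46.1% had only 1, and 554 and 573 cells had 3 or more.

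Cells were next ordered by the share of Pf4 among their UMIs and split at the quartile limits of DMSO cells, 213, 563 and 2736 CPM of Pf4 in the cell. The same limits put 36.3%, 23.8%, 19.7% and 20.2% of RO-3066 cells in the 4 quartiles. In the lowest and the highest quartile, the other 8 megakaryocyte markers summed to 61.6 and 700.2 CPM in DMSO. The sums in RO-3066 were 126 and 1059 CPM. All 7 of those at 5 CPM or more in either end quartile were at least 1.5-fold higher in the highest. Depth moved with Pf4: the median was 21547.5 UMIs in the lowest and 33656 in the highest DMSO quartile, and 25400 and 79521 in RO-3066. Ratios held to cells of 15000 to 40000 UMIs are given below beside those of all cells. Mitochondrial UMIs lay between 1.51% and 1.80% across these quartiles.

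Most members were lower in Pf4-high cells. Genes were counted if they reached 5 CPM in either end quartile, and 9 members did in each library. Of these, 8 in DMSO and 6 in RO-3066 were at least 1.5-fold lower in the highest than in the lowest quartile, and 0 were higher. Nkx2-3 and Prdm16 reached 5 CPM in the lowest quartile but not in the highest, in both libraries, so they were counted through the quartile where they were higher. Among all genes counted by the same rule, 14.1% in DMSO and 15.4% in RO-3066 were lower, and 8.54% and 10.1% higher. The median log2 ratio of the 9 members was -1.16 and -1.08, against -0.03 and -0.10 over all genes. Markers of other cells moved with Pf4 too. From the lowest to the highest quartile the stem and progenitor list went from 399 to 168 CPM in DMSO (6 of 9 markers 1.5-fold lower, 2 higher) and from 372 to 226 CPM in RO-3066 (5 of 8 lower, 2 higher). The erythroid list went from 467 to 40.2 CPM in DMSO (1 of 2 markers lower, 1 higher). In RO-3066 it went from 911 to 189 CPM (2 of 3 lower, 1 higher). Hbb-bt, most of the erythroid sum, had ratios of 0.0489 and 0.179, but Epor had 2.77 and 3.77. The neutrophil and monocyte list went from 223 to 99.5 CPM in DMSO (2 of 4 lower, 1 higher). In RO-3066 it went from 167 to 141 CPM (1 of 3 lower, 1 higher). The part of these lists in the members' levels was not tested.

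Hlf showed the lowest ratio. From the lowest to the highest Pf4 quartile it stood at 130, 109, 51.1 and 11.2 CPM in DMSO and at 163, 125, 44.3 and 11.1 CPM in RO-3066. In DMSO the ratio of the end quartiles was 0.0861 (0.0797 to 0.0929), and in RO-3066 it was 0.0683 (0.0631 to 0.0738). The libraries thus differed in Hlf among Pf4-low cells and met in the Pf4-high quartile. Over 10 bins of cells, with limits again from DMSO cells, Hlf went from 141 to 7.84 CPM in DMSO and from 174.5 to 8.71 CPM in RO-3066, and most of the decline lay between the fifth and the eighth bin (102 to 24.1 CPM in DMSO). Mean Hlf UMIs per cell were also lower, 2.89 against 0.546 in DMSO and 4.47 against 0.978 in RO-3066, although the Pf4-high cells were deeper.

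Mecom, Nkx2-3 and Hoxa9 had the same order of quartiles. Mecom was at 121 CPM in the lowest and 17.3 CPM in the highest DMSO quartile, a ratio of 0.143 (0.134 to 0.153), and at 137 and 18.1 CPM in RO-3066, a ratio of 0.133 (0.124 to 0.141). Nkx2-3 was at 26.7 and 3.45 CPM in DMSO, a ratio of 0.129 (0.111 to 0.149), and at 25.3 and 4.35 CPM in RO-3066, a ratio of 0.172 (0.150 to 0.196). For Hoxa9 the values were 61.2 and 10.0 CPM in DMSO, a ratio of 0.164 (0.151 to 0.179), and 51.8 and 7.89 CPM in RO-3066, a ratio of 0.152 (0.138 to 0.168). Like Prdm16, Hoxb4 and Hoxb5, described below, these 3 genes and Hlf declined over every quartile in both libraries. In cells of 15000 to 40000 UMIs Hlf, Mecom, Nkx2-3 and Hoxa9 kept their direction. Their ratios there were nearer to 1 except for Nkx2-3 in RO-3066. They were 0.138 for Hlf, 0.256 for Mecom, 0.220 for Nkx2-3 and 0.377 for Hoxa9 in DMSO. In RO-3066 they were 0.128, 0.226, 0.112 and 0.337.

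The shares of cells with a UMI at 10000 UMIs showed the same. From the lowest to the highest quartile they were 63.6% and 11.5% for Hlf in DMSO and 73.9% and 10.8% in RO-3066. For Mecom they were 64.3% and 17.9%, and 68.9% and 14.1%. Nkx2-3 was found in 22.0% and 4.08% of DMSO cells, and in 23.8% and 4.19% of RO-3066 cells.

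A second set of members was lower by less. Prdm16 was at 7.71 and 2.89 CPM in the end quartiles of DMSO (ratio 0.375, 0.310 to 0.452) and at 10.4 and 4.41 CPM in RO-3066 (0.423, 0.362 to 0.494). Hoxb4 was at 12.9 and 7.95 CPM in DMSO (0.615, 0.541 to 0.699) and at 17.0 and 10.1 CPM in RO-3066 (0.594, 0.532 to 0.664). Hoxb4 thus declined less than Hoxa9, whose interval lay far below that of Hoxb4 in both libraries. Hoxb5, under 5 CPM in every quartile, had ratios of 0.390 (0.298 to 0.510) and 0.621 (0.501 to 0.770). Mllt3 was at 38.0 and 23.9 CPM in DMSO (0.627, 0.583 to 0.676) and at 42.4 and 31.5 CPM in RO-3066, where 0.742 (0.694 to 0.793) did not reach 1.5-fold.

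Tcf15 and Mycn had the ratios nearest to 1 in both libraries. Counting error did not set them fully apart, since Tcf15 in DMSO and Mycn in RO-3066 had intervals that overlapped those of Mllt3. Tcf15 was at 47.2 and 31.2 CPM in DMSO, a ratio of 0.661 (0.619 to 0.706) at the edge of the 1.5-fold rule, and at 57.3 and 52.0 CPM in RO-3066, a ratio of 0.907 (0.859 to 0.958). Under 6 alternatives Tcf15 in DMSO no longer reached 1.5-fold, up to a ratio of 0.879 in cells of 15000 to 40000 UMIs. Mycn was at 95.7, 92.1, 87.7 and 95.8 CPM over the 4 DMSO quartiles, a ratio of 1.0 (0.960 to 1.05), and at 87.6, 73.4, 77.3 and 68.5 CPM in RO-3066, a ratio of 0.781 (0.747 to 0.818). Per cell, Mycn UMIs were higher in the Pf4-high cells, 4.69 against 2.14 in DMSO and 6.02 against 2.40 in RO-3066, where those cells were also deeper.

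**Figure D2:**
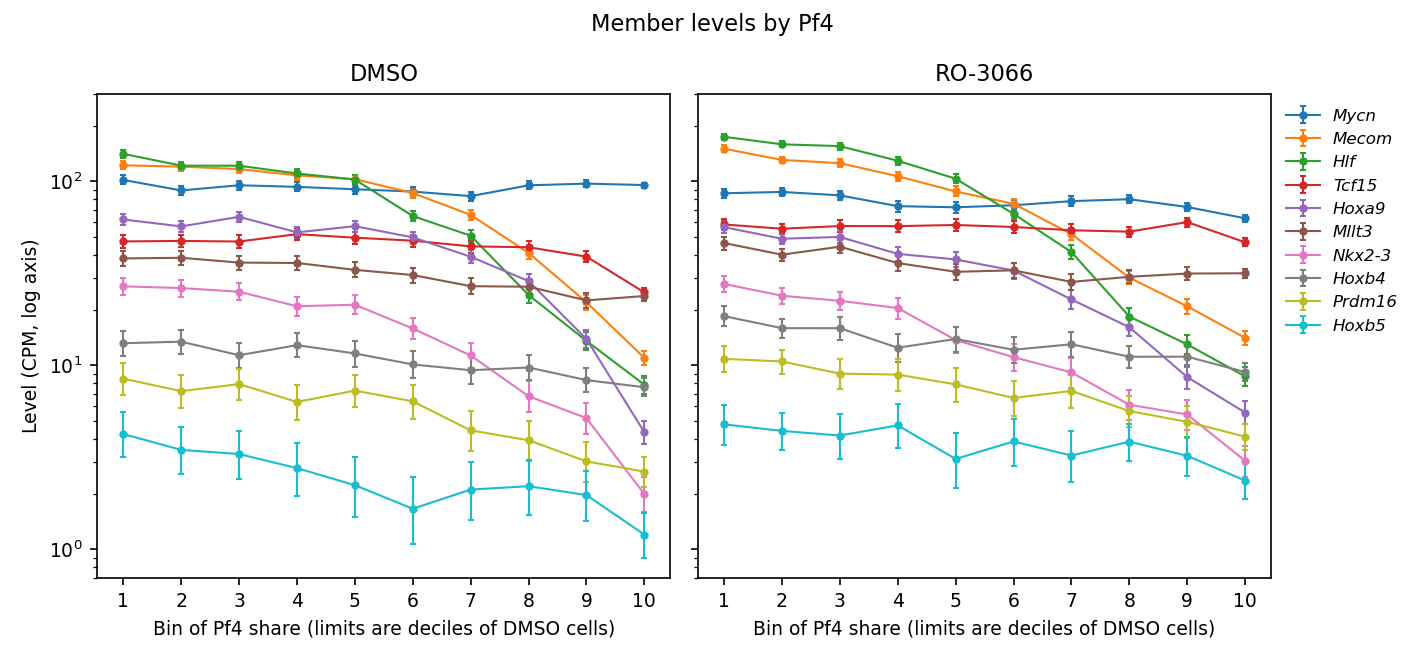
Level of each member in CPM (log axis) over 10 bins of cells by Pf4 share of UMIs, with limits set on DMSO cells, in DMSO and RO-3066; bars are exact 95% counting intervals. Hlf, Mecom, Nkx2-3 and Hoxa9 decline over the upper bins in both libraries, while Mycn stays nearly level in DMSO.

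Cells were also ordered by Mki67 plus Top2a UMIs, 2 genes of dividing cells, with quartile limits from DMSO cells of 2.34, 6.70 and 12.4 per 10000 UMIs. Both genes were lower in RO-3066, Mki67 at 350 and 300 CPM and Top2a at 542 and 410 CPM in DMSO and RO-3066. Of RO-3066 cells, 11.1%, 43.4%, 26.4% and 19.0% lay in the 4 quartiles. Across cells, Spearman's rho between the Pf4 share and the Mki67 plus Top2a level was 0.072 in 5832 DMSO and -0.074 in 3680 RO-3066 cells. Neither order thus rose steadily with the other, but they were not unrelated. In RO-3066 the 4 Mki67 plus Top2a quartiles held 202, 467, 345 and 323 cells of the lowest Pf4 quartile. Of the highest Pf4 quartile they held 38, 468, 175 and 62 cells. In DMSO these numbers were 440, 319, 332 and 367, and 269, 415, 407 and 367. The Mki67 plus Top2a level was related to depth, with rho 0.52 in DMSO and -0.12 in RO-3066. All cells of a library share its preparation.

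By limits from DMSO cells, the members called between the ends of this order were too few to set apart from all genes. Of members at 5 CPM or more in either end quartile, 1 of 9 in DMSO (Tcf15) and 0 of 10 in RO-3066 were at least 1.5-fold lower in the highest. Of all genes, 3.07% and 3.44% were lower. None of the members was 1.5-fold higher, where 8.78% and 13.5% of all genes were. With limits set on RO-3066 cells, Mecom, Hoxa9 and Hoxb5 passed 1.5-fold there, as described below. The median log2 ratio of members was 0.04 in both libraries, against 0.10 and 0.16 over all genes.

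The middle of the order was lower than its ends for several members. Hlf stood at 82.3, 49.1, 48.7 and 68.6 CPM over the 4 DMSO quartiles and at 145, 52.2, 70.0 and 113 CPM in RO-3066. Mecom followed the same course, at 68.7, 52.0, 61.9 and 76.6 CPM in DMSO and at 93.6, 49.7, 70.0 and 115 CPM in RO-3066. Hoxa9 was at 38.6, 28.8, 33.2 and 39.8 CPM, and at 41.1, 20.6, 26.4 and 46.0 CPM. Pf4 stood at 4101, 5448, 5205 and 5427 CPM over the same quartiles in DMSO and at 3851, 5358, 3369 and 1813 CPM in RO-3066. The other 8 megakaryocyte markers summed to 270, 361, 337 and 388 CPM and to 397, 662, 526 and 316 CPM. In the highest DMSO quartile, Hlf and Mecom were thus higher than in the middle, and the sum of the 8 markers was at its highest too. In the highest RO-3066 quartile Hlf and Mecom were also higher than in the middle. There, however, Pf4 and the sum of the 8 markers were at their lowest. The part of megakaryocyte RNA in these courses was not tested.

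Within the lowest Pf4 quartile alone, Hlf was at 140, 108, 112 and 152 CPM over the Mki67 plus Top2a quartiles in DMSO and at 210, 137, 157 and 193 CPM in RO-3066. The dip in the middle was thus present among Pf4-low cells too. Within the highest Pf4 quartile Hlf lay between 10.4 and 12.1 CPM in DMSO and between 7.19 and 14.5 CPM in RO-3066, where the lowest of these bins held 38 cells and 18 Hlf UMIs. In each library, every bin of the highest Pf4 quartile was below every bin of the lowest.

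Tcf15 was the one member with a steady order in DMSO, at 54.6, 48.6, 38.4 and 28.7 CPM, a ratio of 0.527 (0.491 to 0.565). In the RO-3066 library it was at 49.0, 57.5, 54.6 and 45.0 CPM, a ratio of 0.919 (0.828 to 1.02). The RO-3066 over DMSO ratio of Tcf15 was 0.897 in the lowest and 1.57 in the highest Mki67 plus Top2a quartile, and this difference between libraries cannot be tested with 1 library each. The DMSO decline was present within each Pf4 quartile, from 61.4 to 33.5 CPM in the lowest and from 42.7 to 20.4 CPM in the highest. Mycn was at 112, 90.1, 78.5 and 99.1 CPM in DMSO and 89.3, 69.5, 78.8 and 85.1 CPM in RO-3066, with the lowest level in the middle as for Hlf.

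Mllt3 was at 28.9 and 33.7 CPM in the end quartiles of DMSO, a ratio of 1.17 (1.08 to 1.27), and at 33.1 and 40.3 CPM in RO-3066, a ratio of 1.22 (1.08 to 1.38). The other low members had ratios with intervals that held 1 in RO-3066, from 0.914 for Prdm16 to 1.22 for Hoxb5. Several of these ratios depended on the cells and limits used. In DMSO cells of 15000 to 40000 UMIs, Hlf turned to 1.25 from 0.834 and Nkx2-3 to 1.31 from 0.941. In RO-3066 the first quartile held 11.1% of cells. With limits set on RO-3066 cells themselves, Mecom, Hoxa9 and Hoxb5 were at 1.83, 1.52 and 1.63, and Hlf turned to 1.32 from 0.777. No direction over this order is read for Hlf or Nkx2-3. Hoxb5 also turned, to 0.656, on thinned cells.

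**Figure D3:**
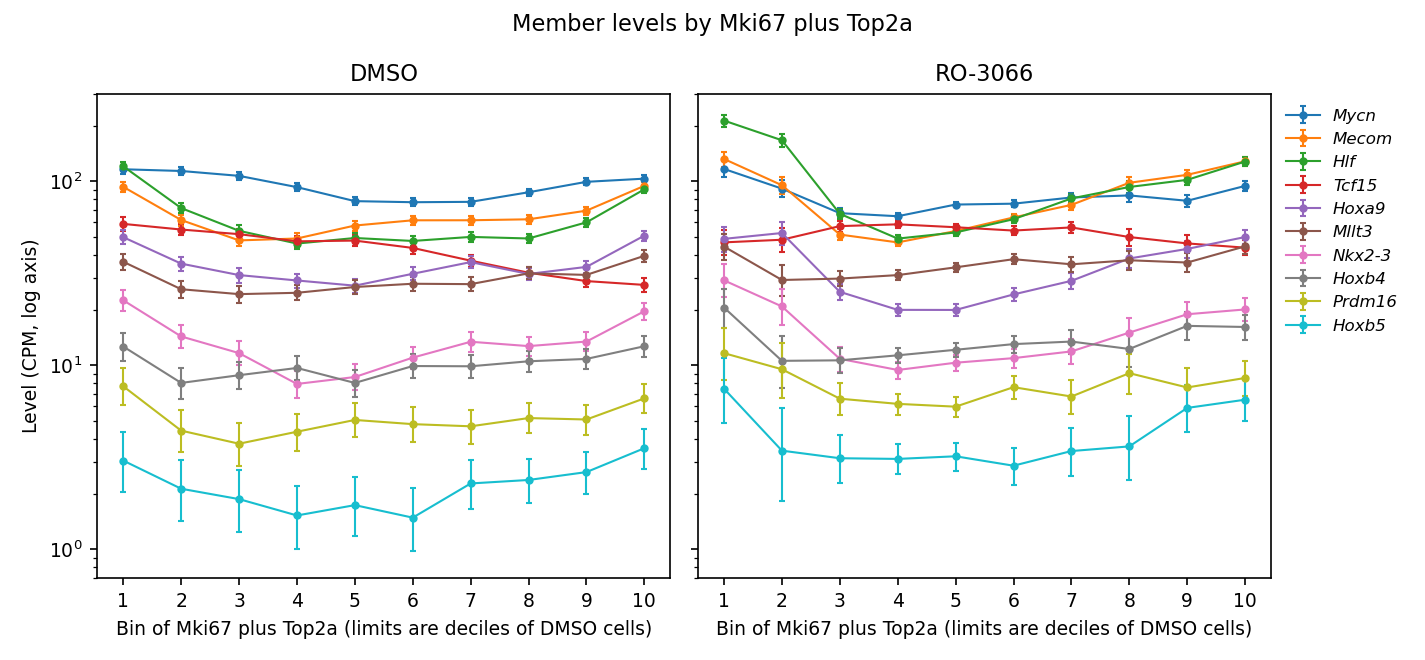
Level of each member in CPM (log axis) over 10 bins of cells by Mki67 plus Top2a UMIs per 10000 UMIs, with limits set on DMSO cells; bars are exact 95% counting intervals. Hlf is lowest in the fourth bin of both libraries (45.9 CPM in DMSO, 48.8 CPM in RO-3066) and higher in the end bins (121 and 90.5 CPM in DMSO, 214 and 128 CPM in RO-3066), and Tcf15 goes from 58.7 to 27.4 CPM in DMSO and from 46.6 to 43.6 CPM in RO-3066.

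Nearly all cells held some member RNA. At 10000 UMIs, 1 or more of the 10 members had a UMI in 94.2% (93.6 to 94.8) of DMSO cells and in 95.1% (94.3 to 95.7) of RO-3066 cells. The mean number of members in a cell was 2.72 for DMSO and 2.92 for RO-3066, and 3 or more were found in 53.1% (51.8 to 54.4) and 57.7% (56.1 to 59.4) of cells. The most in a cell was 9, reached by 1 cell in each library. These shares depend on depth, and were 23.7% and 27.3% at 5000 UMIs and 76.4% and 81.6% at 20000 UMIs.

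Members were found together at both ends more often than their single shares give. If members were detected independently, 5 or more would be found in 8.50% of cells with DMSO and 11.6% with RO-3066, and 12.7% and 17.0% were found. At the other end, 3.04% and 2.32% would hold none, and 5.79% and 4.95% did. In between, 3 or more were found slightly less often than the 55.2% and 61.1% given by independence. Pf4 moved with this: from the lowest to the highest Pf4 quartile the mean number of members went from 3.40 to 1.71 in DMSO and from 3.65 to 1.66 in RO-3066. The share with 3 or more went from 72.2% to 22.2% and from 77.5% to 21.7%, and the share with none from 1.89% to 13.3% and from 0.704% to 14.1%.

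**Figure D4:**
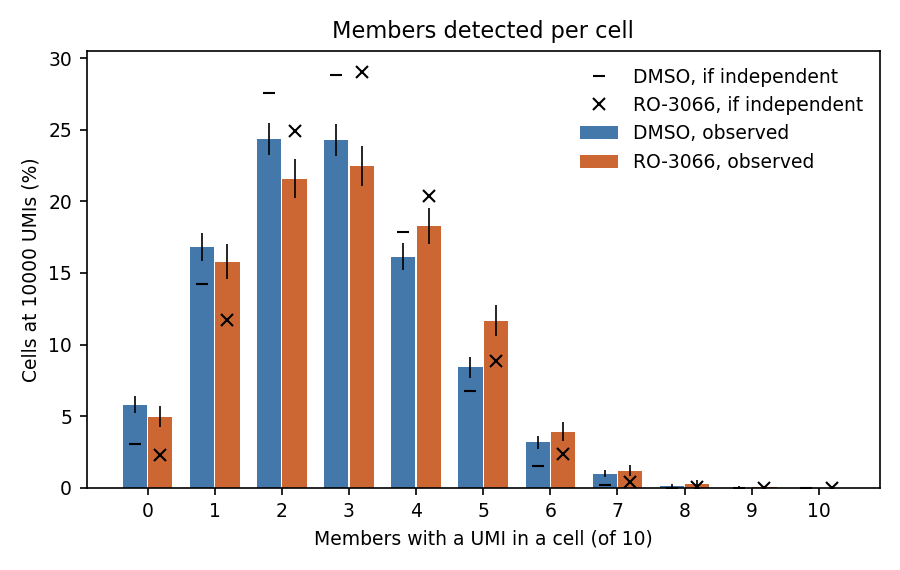
Share of cells by the number of members with a UMI at 10000 UMIs per cell, in DMSO and RO-3066, beside the share given by independent detection. Both libraries exceed independence at 0 members (5.79% against 3.04% in DMSO, 4.95% against 2.32% in RO-3066) and at 5 or more.

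Pairs were compared by the number of cells holding both members over the number given by the product of their shares. In DMSO 44 of the 45 pairs had at least 10 expected cells; 42 of these were above 1, with a median of 1.11. In RO-3066 all 45 were assessed, 38 were above 1 and the median was 1.12. Within Pf4 quartiles the medians were nearer to 1, at 1.05 in both libraries, with 38 and 35 pairs above 1. Pairs of other genes were not compared, so these counts are not shown to be particular to the members.

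Hlf and Mecom were found together in 1451 DMSO cells where 1132 were expected, a ratio of 1.28 (1.22 to 1.35), and in 1168 RO-3066 cells where 905.1 were expected, a ratio of 1.29 (1.22 to 1.37). Within Pf4 quartiles these ratios were 1.08 and 1.07. Hlf and Nkx2-3 were at 1.37 (1.25 to 1.5) and 1.39 (1.26 to 1.54), and at 1.11 and 1.12 within Pf4 quartiles. The excess of these pairs thus lay largely between Pf4 quartiles.

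The ratios of some other pairs were nearly as high within Pf4 quartiles. Prdm16 and Mllt3 were together in 111 DMSO cells where 80.2 were expected (1.38, 1.14 to 1.67) and in 107 RO-3066 cells where 83.3 were expected (1.28, 1.05 to 1.55). Within Pf4 quartiles they were at 1.35 and 1.25. Hoxb5 and Nkx2-3 gave the highest DMSO ratio, 38 cells against 19.99 expected (1.90, 1.35 to 2.61; 1.68 within Pf4 quartiles), and were the 1 pair there at 1.5 or more; in RO-3066 they were at 1.29 (0.873 to 1.85). Hoxb4 and Hoxb5, neighbours on chromosome 11, gave the highest RO-3066 ratio, 28 cells against 19.8 expected (1.42, 0.940 to 2.05), and were at 1.48 (0.918 to 2.27) in DMSO. These extremes were picked among the pairs, and both intervals of the last pair held 1.

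Mycn was found with the others about as often as its share gives. Its 9 pairs had ratios of 0.974 to 1.07 in DMSO and of 0.996 to 1.15 in RO-3066, and every interval held 1. In DMSO cells Tcf15 and Hlf were likewise at 1.02 (0.956 to 1.10), and RO-3066 cells gave 0.999 (0.928 to 1.07).

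**Figure D5:**
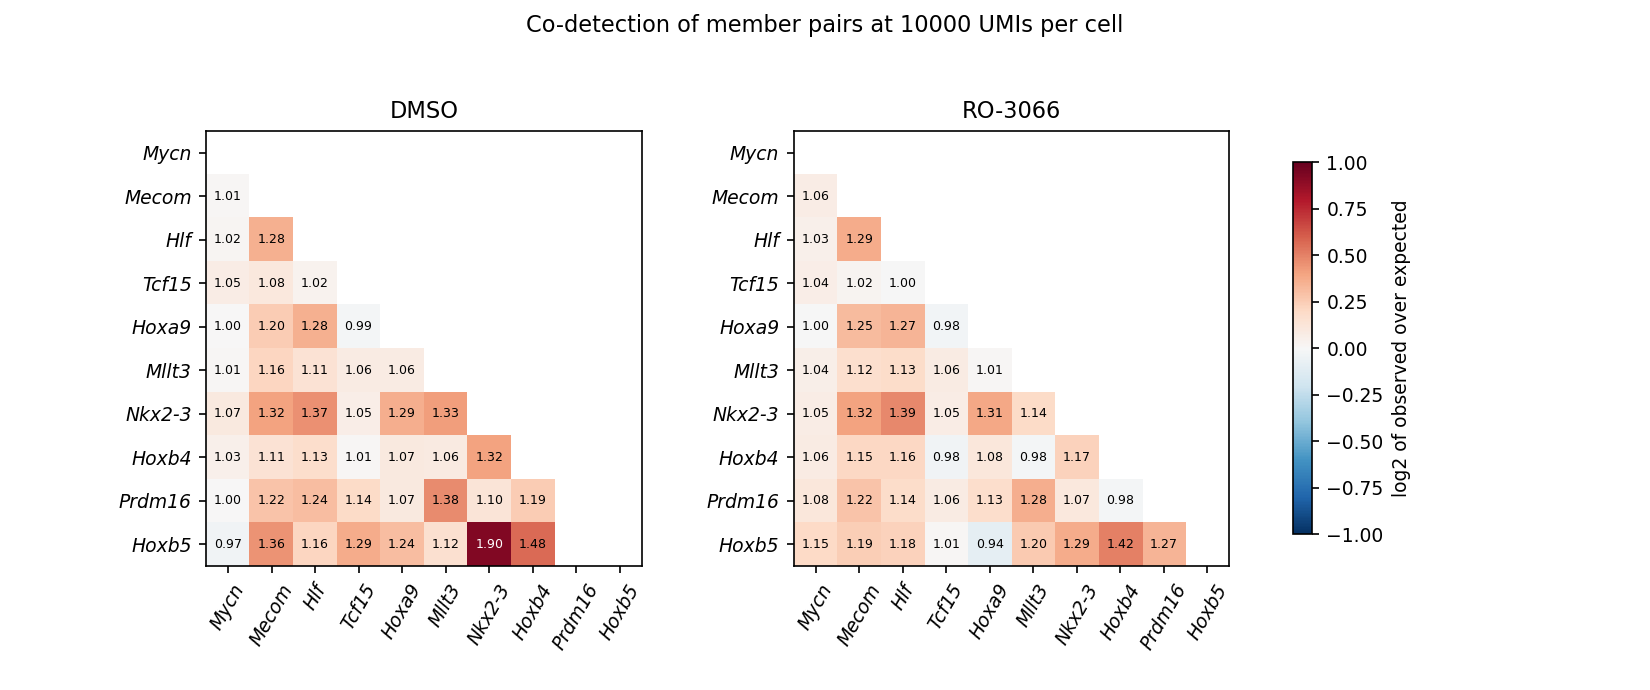
Observed over expected number of cells with both members of a pair at 10000 UMIs per cell, in DMSO and RO-3066; colour is the log2 of the ratio printed in each field. Pairs among Hlf, Mecom, Hoxa9 and Nkx2-3 lie at 1.20 to 1.39 in both libraries, the pairs of Mycn lie near 1, and Prdm16 with Hoxb5 is blank in DMSO, where fewer than 10 cells were expected.

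For each member with a UMI in at least 10% of DMSO cells, the most similar genes were taken by Pearson's r of log counts over 5748 thinned DMSO cells among 8881 genes, and r was read again in 3556 RO-3066 cells. These values describe cells of 1 library, which share depth after thinning. For Hlf they were Vim, an intermediate filament gene (r 0.38 in DMSO and 0.46 in RO-3066), S100a4, a calcium-binding protein (0.36 and 0.37), and Myl10, a myosin light chain (0.34 and 0.29). For Mecom they were S100a4 (0.39 and 0.40), Hlf itself (0.29 and 0.37) and Vim (0.28 and 0.29). S100a4 and Vim also led for Hoxa9 (0.21 and 0.20 in DMSO), beside Stmn1 (0.21), and for Nkx2-3 (0.21 and 0.17), beside Mecom (0.17).

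For the other members r was low. Mycn was closest to Slfn2 (0.12 in DMSO and 0.20 in RO-3066), Cish (0.11 and 0.11) and Pim1 (0.11 and 0.12), of which Cish and Pim1 are known targets of cytokine signalling through STAT5. Mllt3 was closest to Mecom (0.12 and 0.13), Ly6a (0.10 and 0.10) and S100a4 (0.10 and 0.12). Tcf15 was closest to Slfn2 (0.11 and 0.086), S100a6 (0.11 and 0.053) and Jund (0.11 and 0.068), and Hoxb4 to S100a4 (0.075 and 0.056), Ly6a (0.071 and 0.024) and Hlf (0.065 and 0.061). In counts this sparse, values this low are no finding.

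Known partners of the members differed as little between treatments. Of 28 partner genes, 26 reached 5 CPM, and 0 were 1.5-fold higher and 0 lower in RO-3066 (6.61% and 2.46% of all genes), with a median log2 ratio of 0.12. Among the highest ratios at 20 CPM or more were those of Mxd4, a MAX partner that opposes MYC (30.3 and 39.4 CPM, 1.30), and Kmt2a, the MLL methyltransferase (80.9 and 102.6 CPM, 1.27). The lowest were those of Id1, an inhibitor of bHLH factors (102 and 86.2 CPM, 0.847), Men1, a subunit of the MLL complex (20.5 and 19.1 CPM, 0.933), and Myc (68.8 and 65.2 CPM, 0.949).

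Of 39 other transcription factors of blood cells, 31 reached 5 CPM, of which 1 was 1.5-fold higher and 0 lower in RO-3066, with a median log2 ratio of 0.18. The highest were Gfi1b (44.2 and 75.1 CPM, 1.70), Gata1 (23.2 and 33.6 CPM, 1.45) and Nfe2 (70.7 and 98.5 CPM, 1.39), all factors of the megakaryocyte and erythroid lineages. The lowest were Hoxa7 (24.9 and 19.9 CPM, 0.802), Lmo2 (378 and 343 CPM, 0.909) and Tal1 (62.3 and 59.4 CPM, 0.954). HoxA genes lay on both sides of a ratio of 1 (Hoxa5 1.34, Hoxa10 1.06), as did HoxB genes (Hoxb2 1.25, Hoxb7 0.786 from 31 and 23 UMIs); these 4 were chosen after their values were seen. Sox17 was at 0 in both libraries.

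By Pf4 quartile these other factors were split. In DMSO 9 of 28 were at least 1.5-fold higher and 9 lower in the highest quartile, and in RO-3066 6 of 31 were higher and 11 lower. Gata1 was at the top in both, with ratios of 22.2 and 15.0, and Hoxa7 (0.163) and Gata3 (0.214) were lowest in DMSO and RO-3066. The remaining genes here were chosen after their values were seen. HoxA genes beside Hoxa9 were low: Hoxa5 at 0.272 and 0.339, Hoxa7 at 0.163 and 0.233, Hoxa10 at 0.335 and 0.393. HoxB genes were not alike. Hoxb2, the most abundant of them, was at 0.859 and 0.761, but Hoxb3 (1.46 and 2.52 CPM over all cells) was at 0.237 and 0.339, and Hoxb6, Hoxb7 and Hoxb8, each under 1 CPM over all cells, were at ratios of 0.0217 to 0.0863. Among partners Myc was at 0.618 and 0.571 where Mycn was at 1.0 and 0.781.

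By position (mm10, GENCODE vM21), Hlf spans 11:90336536-90390895 and the HoxB members lie on the same chromosome, Hoxb5 at 11:96303336-96306121 and Hoxb4 at 11:96318267-96321638. Mecom spans 3:29951296-30548008, Hoxa9 6:52223100-52231089, Prdm16 4:154316125-154636873 and Mllt3 4:87769925-88033364. Mycn is at 12:12936093-12941914, Nkx2-3 at 19:43612325-43615892 and Tcf15 at 2:152143561-152149097, all protein-coding. Besides Hoxb5, Mecom and Prdm16 overlap antisense genes in the matrices. Those were low: Mecomos was at 0.223 and 0.351 CPM, and the 3 genes opposite Prdm16 were at most at 0.272 CPM.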

How the data were processed

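The authors deposited raw UMI counts per gene and barcode for 2 libraries, with no normalization, per the file headers. Cell Ranger 5.0.1 and the build mm10 are named in the submitters' processing notes, while the matrix headers name Cell Ranger 7.1.0; the annotation and the setting for intron reads and strand were not stated in the sources used.

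Barcodes with at least 1000 UMIs, 500 genes and at most 10% mitochondrial UMIs were kept (26 DMSO and 84 RO-3066 left out), and likely doublets, scored by 50 neighbours among simulated doublets and called at 0.8% per 1000 barcodes, were removed (302 and 118). CPM are UMIs summed over kept cells. Counts by fold used 1.5-fold among genes at 5 CPM or more in either group. The floor of 3 counts was 0.0171 and 0.0182 CPM. Poisson, conditional ratio and Clopper-Pearson intervals cover counting error only. All members were named whatever their values; in each list the 3 largest ratios in each direction at 20 CPM or more were named, and 3 most similar genes per member; a gene among these is not reported here. The members and lists were chosen with earlier results of these data known. The steps were tested on simulated data. Alternatives were scaling, cell weights, thinning depth, filters, minimum level, quartile limits, denominators and, chosen after seeing the data, cells of 15000 to 40000 UMIs. The software was Python 3.11.15 with scipy 1.17.1, numpy 2.4.6, scikit-learn 1.9.0 and pandas 2.3.3.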

Additional observations from a re-analysis of the deposited data

How the results depend on the processing

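Of 108 recomputed counts and shares, 92 stayed within the limits used and 16 moved. Of the recomputed single-gene folds and shares of cells, 277 stayed within the counting interval of the main value and 153 moved out of it. These include shares of cells at other thinning depths. No single-gene value that was called by fold reversed. Members at least 1.5-fold higher in RO-3066, 0 in the comparison, numbered 1 with no minimum level (Hoxb5) and 2 in cells of 15000 to 40000 UMIs (Hlf and Prdm16). In the highest Mki67 plus Top2a quartile of RO-3066, 3 members were higher with that library's own limits and 1 in cells of 15000 to 40000 UMIs. On thinned cells 1 was lower there. The shares over all genes were not recomputed under these alternatives, so no result about the members is read from these counts. The share with 3 or more members was 23.7% in DMSO and 27.3% in RO-3066 at 5000 UMIs, 76.4% and 81.6% at 20000, and 88.8% and 95.8% without thinning. Pairs at 1.5 or more numbered 3 in DMSO at 5000 UMIs, 2 at 20000 and 2 without thinning, and in RO-3066 2 at 5000 and 1 with another random draw. The cause was not tested. Median-ratio scaling raised every log2 ratio of RO-3066 over DMSO by 0.01.

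No paired analysis was possible because each group has 1 library. Depth limits single-cell detection: all members were under 1 UMI per 10000 on average in each library, so cells without a UMI are not shown to lack the transcript. The median depth of RO-3066 cells was 1.45 times that of DMSO cells. Treatment, culture and library preparation cannot be told apart.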
